A study of Mus musculus with 5 samples.

Results

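The lipid carriers and lipid transporters described here are 8 genes of the 27998 present in all 5 count tables of the series, chosen by symbol: Apod, Apoe, Abca1, Abca8a, Abca8b, Pltp, Lpl and Lrp1. Each of the 8 was found in each of the 5 tables. The study sorted cells carrying a Col1a1-driven green fluorescent protein from mouse spinal cord and counted unique molecular identifiers (UMIs, 1 per captured RNA molecule) in single cells. The EAE group held 2 libraries from mice with experimental autoimmune encephalomyelitis, a model of multiple sclerosis in which the immune system attacks myelin. The Healthy group held 3 libraries from mice without it. Both groups carried the Col1a1GFP transgene on a C57/BL6 background, and the sources used here name no other allele, agent, age or day of disease. Because the Col1a1 promoter drives the reporter, the sort takes cells that make collagen I or still hold the reporter, and no label ties a library to an animal of its own. The p-values therefore measure only the spread between these samples.

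Lipids move between cells on carriers. Apolipoproteins such as apolipoprotein E take up cholesterol and phospholipid that the membrane pump ABCA1 exports, phospholipid transfer protein remodels the particles, lipoprotein lipase cuts fatty acids from their triglycerides, and receptors such as LRP1 take the particles up. In the nervous system, where myelin is rich in cholesterol, these carriers are known to take part in the clearance and reuse of myelin lipid. Apolipoprotein D is a lipocalin, a small secreted protein that binds single hydrophobic molecules such as arachidonic acid. In mouse macrophages Abca1, Apoe, Pltp and Lpl are known targets of the liver X receptors, which sense oxidised cholesterol.

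The promoters of Abca1, which was higher in EAE, and of Apod, Abca8a and Abca8b, which were lower, are shown because these 4 members moved most in fibroblasts. Each runs 5′ to 3′ on the gene's own strand, from 250 bases before to 50 bases after the gene's start, from RefSeq on build GRCm38.p6, and all 4 genes lie on the minus strand. Capitals mark an E-box (CACGTG) and, in Abca1, the core of a liver X receptor element of the DR4 kind.
Abca1, chr4:53159846-53160145: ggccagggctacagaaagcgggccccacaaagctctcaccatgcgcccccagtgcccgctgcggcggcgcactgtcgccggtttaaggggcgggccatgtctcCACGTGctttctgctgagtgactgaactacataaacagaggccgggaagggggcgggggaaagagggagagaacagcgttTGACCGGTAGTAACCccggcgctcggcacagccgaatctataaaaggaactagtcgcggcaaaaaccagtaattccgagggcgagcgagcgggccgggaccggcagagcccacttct
Apod, chr16:31314759-31315058: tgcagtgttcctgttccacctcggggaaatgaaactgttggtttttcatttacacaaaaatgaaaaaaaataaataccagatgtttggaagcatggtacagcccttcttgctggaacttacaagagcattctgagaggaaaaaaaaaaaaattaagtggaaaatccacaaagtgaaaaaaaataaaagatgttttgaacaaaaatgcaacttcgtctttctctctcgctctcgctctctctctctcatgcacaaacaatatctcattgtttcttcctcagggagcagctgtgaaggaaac
Abca8a, chr11:110095888-110096187: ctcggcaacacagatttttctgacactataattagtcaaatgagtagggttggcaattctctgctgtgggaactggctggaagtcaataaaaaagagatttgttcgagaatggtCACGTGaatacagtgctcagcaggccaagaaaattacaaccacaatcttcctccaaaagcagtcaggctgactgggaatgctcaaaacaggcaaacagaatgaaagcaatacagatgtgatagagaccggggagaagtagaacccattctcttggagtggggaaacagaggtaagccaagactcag
Abca8b, chr11:109995796-109996095: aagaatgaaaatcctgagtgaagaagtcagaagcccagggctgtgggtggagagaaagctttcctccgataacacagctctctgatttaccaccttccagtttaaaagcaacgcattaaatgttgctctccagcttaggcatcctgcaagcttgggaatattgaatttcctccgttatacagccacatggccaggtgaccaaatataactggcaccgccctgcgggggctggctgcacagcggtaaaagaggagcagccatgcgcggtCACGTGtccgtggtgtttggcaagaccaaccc

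In these windows 5 motifs were searched on both strands. They were the DR4 core, the E-box CACGTG, the TATA box TATAAA, the GC box GGGCGG and the AP-1 site TGANTCA. The DR4 core matched at -67 from the Abca1 start, as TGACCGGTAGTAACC on the printed strand, and 0.207% of the 32851 RefSeq promoters of the same length hold it. The E-box lay at -147 in Abca1, at -136 in Abca8a and at 18 in Abca8b, and 7.15% of all promoters hold it. Abca1 also held a TATA box at -29 and GC boxes at -163 and -97, which 13.6% and 35.7% of all promoters hold, and Abca8b a GC box at -36. The Apod window held none of the 5, and the AP-1 site, held by 7.81% of all promoters, was in none of the 4 windows. A match describes letters and is not evidence of binding.

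The 5 tables held 7205 barcodes and 23621549 UMIs. EAE 1, Healthy 1 and Healthy 2, whose labels carry no sequencing lane, shared many barcodes: 1239 between EAE 1 and Healthy 1, 683 between EAE 1 and Healthy 2, and 996 between both Healthy libraries. A shared barcode was kept only in the library where its UMI total was highest, which removed 2 barcodes from EAE 1, 1549 (67.6%) from Healthy 1 and 684 (61.2%) from Healthy 2, so the rule itself assigns most of the shared barcodes to EAE 1. After filters 4678 barcodes were kept, 1913 and 1238 in EAE 1 and 2, against 724, 429 and 374 in Healthy 1, 2 and 3. Their median UMI counts were 4540.0 and 5028 in EAE and 1213, 3195 and 4273 in Healthy. Cells were classed by UMIs of marker genes, and 85.5% and 93.2% of EAE barcodes and 88.5%, 89.0% and 93.3% of Healthy barcodes were gated as fibroblasts. All 6 fibroblast markers were present in every library's fibroblast sum, but the gate used these same markers, so this does not check the class.

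In fibroblast-gated cells 7 of the 8 members differed between EAE and Healthy. Abca1 and Pltp were higher in EAE, and Apod, Apoe, Abca8a, Abca8b and Lpl were lower, while Lrp1 did not pass the test. UMIs were summed per library and tested with edgeR's quasi-likelihood test across 9861 genes with a term for batch, at a Benjamini-Hochberg adjusted p of 0.05. Over all genes tested 10.0% were called higher and 10.6% lower. The median log2 fold change was -1.02 over the 8 members and 0.00 over all genes. The EAE values of 2 members were both above the 3 Healthy values, as for 28.0% of all genes tested, and those of 6 members were both below, as for 18.2%. Scaled by library totals without TMM, 1224 genes were called higher and 855 lower, against 991 and 1044 with it, with a median of 0.10 over all genes, and the members' calls and signs were the same. A sum over cells does not tell fewer cells that hold an RNA from less of it per cell.

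Apod made up 1.57% and 1.93% of all fibroblast UMIs in EAE 1 and 2, against 6.51%, 8.74% and 6.66% in Healthy 1, 2 and 3. It ranked first among all genes in each Healthy library and second in both EAE libraries. The highest EAE library lay far below the lowest Healthy one. The log2 fold change was -2.17 (SE 0.19, edgeR adjusted p = 0.000182). Together the 8 members held 1.87% and 2.41% of fibroblast UMIs in EAE and 7.06%, 9.21% and 7.38% in Healthy. Without Apod the other 7 held 0.308% and 0.481% in EAE and 0.550%, 0.469% and 0.722% in Healthy, and these ranges overlap.

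Single cells showed how the Apod difference was spread. The median share of a cell's UMIs that came from Apod was 0.229% and 0.519% in EAE 1 and 2, and 5.92%, 9.04% and 5.90% in Healthy 1, 2 and 3. Cells with more than 5% of their UMIs from Apod were 16.4% and 18.3% of EAE fibroblasts and 55.5%, 68.8% and 55.6% of Healthy ones. Cells with less than 0.5% were 63.3% and 49.6% of EAE fibroblasts and 6.55%, 8.12% and 6.88% of Healthy ones. The 95th percentile was 13.0% and 14.5% in EAE, against 16.2%, 19.3% and 16.4% in Healthy, so cells with a high Apod share were present in both states.

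**Figure D1:**
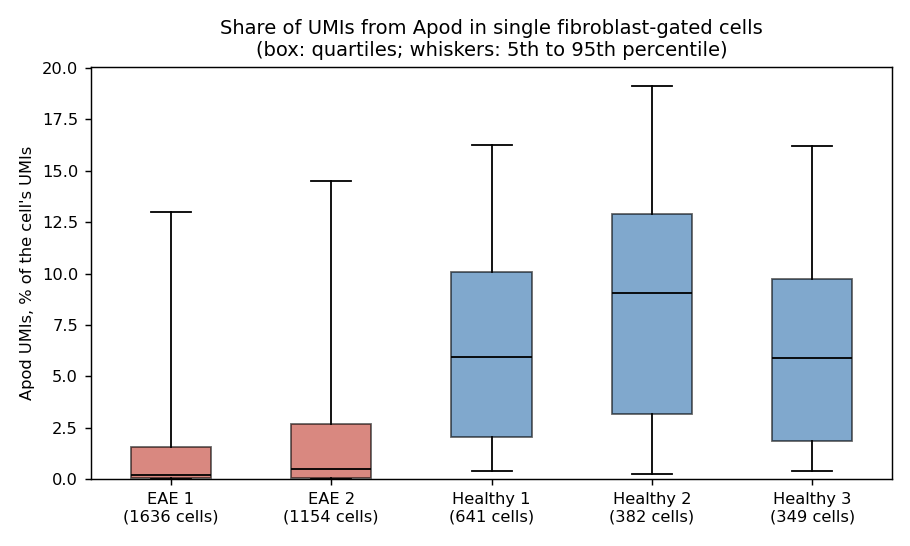
Share of each fibroblast-gated cell's UMIs that came from Apod, in %, for EAE 1 and 2 (red) and Healthy 1, 2 and 3 (blue); boxes give quartiles and whiskers the 5th and 95th percentiles over cells. The EAE medians are 0.229% and 0.519%, and the Healthy medians lie between 5.90% and 9.04%, while the whiskers reach above 10% in every library.

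Apoe, the main cholesterol carrier made within the nervous system, had 2040.3 and 3263 CPM (UMIs scaled to 1000000 per library sum) in EAE 1 and 2, against 4291, 3541 and 5786 in Healthy 1, 2 and 3. All Healthy values lay above both EAE values, but EAE 2 and Healthy 2 were close. The log2 fold change was -0.99 (SE 0.15, edgeR adjusted p = 0.0010). The call was lost without EAE 1 (-0.90, adjusted p = 0.0874) and without the batch term (-0.88, 0.0546). It was also lost, at smaller log2 fold changes, without the 3 subclasses found mainly in EAE (-0.48, 0.0592), in cells of no subclass (-0.45, 0.0575) and in Clec3b-Fmod-Igfbp2 cells (-0.62, 0.0615), subclasses that are described further on.

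Among the transporters Abca1, which exports cholesterol and phospholipid to apolipoproteins, had 109 and 148 CPM in EAE, against 23.9, 12.9 and 21.6 in Healthy. Its mean was 129 ± 27.6 in EAE (SD, n = 2) and 19.4 ± 5.78 in Healthy (SD, n = 3). The groups did not overlap, and the log2 fold change was 2.58 (SE 0.25, edgeR adjusted p = 7.16e-05). The Healthy values rest on 23, 16 and 32 UMIs, against 934 and 1024 in EAE. With all barcodes as deposited, copies included, the log2 fold change was 1.75 (adjusted p = 0.0291).

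Abca8a and Abca8b are neighbouring members of the ABC subfamily A, membrane proteins thought to move lipids. Abca8a had 34.0 and 41.6 CPM in EAE, against 296, 302 and 264 in Healthy, with means of 37.8 ± 5.39 (SD, n = 2) and 287 ± 20.3 (SD, n = 3). Abca8b was far less abundant, with 2.46 and 3.62 in EAE and 22.8, 31.4 and 27.6 in Healthy. For both genes the lowest Healthy value was several times the highest EAE value. The log2 fold changes were -3.03 for Abca8a (SE 0.23, edgeR adjusted p = 2.32e-05) and -3.31 for Abca8b (SE 0.34, edgeR adjusted p = 9.41e-05).

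Both genes stand in a row of 5 ABC subfamily A genes on the minus strand of mouse chromosome 11 (mm10). Abca8b spans 109932190 to 109995845 and Abca8a 110025634 to 110095978, with 29788 bases between them. Abca9 (110100749 to 110168196) starts 4770 bases beyond Abca8a, followed by Abca6 (110176820 to 110251776) and Abca5 (110269369 to 110337716). Abca9 had 16.2 and 21.6 CPM in EAE, against 77.8, 63.7 and 112.6 in Healthy (log2 fold change -2.33, edgeR adjusted p = 6.31e-05). Abca6 had 3.16 and 3.19 in EAE, against 32.2, 39.5 and 27.6 in Healthy (-3.43, adjusted p = 5.03e-05). Abca5, which was singled out after its values were seen, had 12.1 and 11.4 in EAE, against 13.5, 12.9 and 8.09 in Healthy, and its log2 fold change was 0.01 (SE 0.32, edgeR adjusted p = 0.985). Of the 5 neighbours 4 were lower in EAE, including the members Abca8a and Abca8b already described, and Abca5 at the end of the row was not called. Of all genes tested 10.6% were called lower. Of the 951 windows of 50 bases in the last 1000 bases of the Abca8a, Abca8b and Abca9 transcripts, 0 were shared between any pair, so a read of that length from those ends can be placed in 1 of the 3.

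Pltp, which transfers phospholipid between lipoproteins, had 454 and 883 CPM in EAE, against 335, 223 and 440.1 in Healthy. EAE 1 and Healthy 3 nearly met. The log2 fold change was 0.74 (SE 0.21, edgeR adjusted p = 0.0318). The call was lost when Healthy 2 was left out (edgeR adjusted p = 0.0566) and without the batch term (0.117). It was also lost without EAE 1, EAE 2 or Healthy 3, at log2 fold changes of 0.93, 0.60 and 0.60. With the batch term kept, the fits without EAE 2 and without Healthy 3 make the same comparison, EAE 1 against Healthy 1 and 2.

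Lpl, the lipase that frees fatty acids from triglyceride-rich particles, had 74.2 and 87.8 CPM in EAE, against 145, 141 and 173 in Healthy. The groups did not overlap, and the log2 fold change was -1.06 (SE 0.19, edgeR adjusted p = 0.00303). Without EAE 1, EAE 2 or Healthy 3 the adjusted p was 0.136, 0.0539 and 0.0661, at log2 fold changes between -1.06 and -1.05.

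Lrp1, the endocytic receptor for apolipoprotein E particles, had 370.4 and 381 CPM in EAE, against 388, 436 and 508 in Healthy. EAE 2 and Healthy 1 differed by less than the spread within Healthy. The log2 fold change was -0.36 (SE 0.19, edgeR adjusted p = 0.214).

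**Figure D2:**
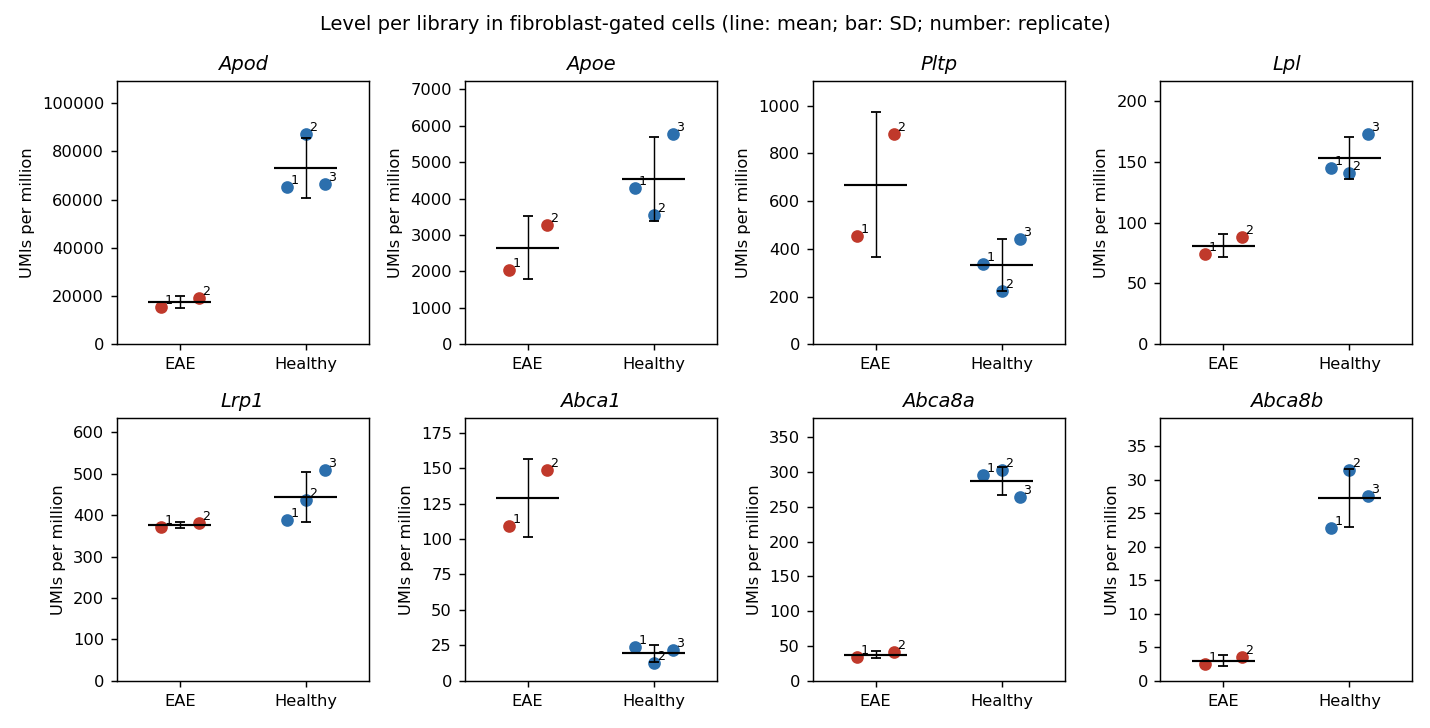
CPM of each member in the fibroblast-gated cells of each library, EAE left (red) and Healthy right (blue); points are libraries with their replicate number, lines are means and bars SD, and every axis starts at 0. Both EAE points of Abca1 (109 and 148) lie above its Healthy points, and both of Apod, Abca8a and Abca8b lie far below. For Lrp1 the groups lie close together, and for Pltp EAE 1 (454) and Healthy 3 (440.1) nearly meet, with EAE 2 (883) far above.

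All 8 members had the same sign in each batch. The log2 ratio of EAE over Healthy was -2.28 within the first batch and -1.79 within the second for Apod, 2.51 and 2.73 for Abca1, and -3.10 and -2.64 for Abca8a. It was 0.70 and 1.00 for Pltp and -0.15 and -0.41 for Lrp1, with a pseudocount of 1 on CPM. The second batch holds 1 library of each state, so these are values without a test.

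Depth per cell differed between libraries, so every cell was also thinned to 1000 UMIs and shallower cells were left out. Of fibroblast-gated cells, 80.1% ± 0.0568 in EAE (SD, n = 2) and 98.2% ± 0.0952 in Healthy (SD, n = 3) then had at least 1 Apod UMI. For Abca1 the shares were 11.8% ± 1.5 in EAE and 1.75% ± 0.524 in Healthy, and for Abca8a 4.97% ± 0.373 in EAE and 24.1% ± 1.89 in Healthy. Lymphocyte-gated cells, which should lack Apod, had an Apod UMI in 20.7% and 35.0% of cells in EAE 1 and 2, and none of them had an Abca1 or Abca8a UMI among 29 and 20 cells. An exact permutation test, two-sided, gave p = 0.2 for Apod, Abca1 and Abca8a, the smallest value that 10 splits of 5 libraries allow.

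Without gates, over all kept barcodes, 1 member was called higher (9.06% of 10224 genes) and 5 lower (9.65%). Pltp had a log2 fold change of 0.68 there (edgeR adjusted p = 0.0613), and the other 7 members kept their side of the threshold.

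Markers of other cells were summed within the fibroblast-gated cells. Barcodes that passed another gate on these same markers had been left out, so the gates themselves limit these sums. The 5 endothelial markers summed to 240.1 and 249 CPM in EAE 1 and 2, against 91.3, 69.3 and 112 in Healthy 1, 2 and 3, with Cldn5 at 0 in all 3 Healthy libraries. Endothelial-gated cells of EAE 1 had 103 CPM of Abca1 and 680 of Pltp, against 109 and 454 in its fibroblast-gated cells. The part of these markers in the Abca1 and Pltp differences was not tested. The 7 myeloid markers summed to 12.6 and 13.6 in EAE and 11.4, 12.9 and 18.9 in Healthy, and the 7 mural markers to 35.9 and 30.3 in EAE and 38.4, 25.8 and 20.2 in Healthy.

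Fibroblast-gated cells were divided by markers of subclasses that earlier clustering of these cells had named, so the levels by subclass are a description. The subclass mix differed between states. Cells of the Lcn2-Saa3, Igfbp3-Slc13a3-Wnt4 and Tnc-Cxcl9-Col7a1 subclasses were 37.8%, 17.1% and 10.6% of fibroblasts in EAE 1 and 19.3%, 16.3% and 12.0% in EAE 2, and at most 2.03% each in any Healthy library. Gfra1-Osr2 cells were 0.733% and 3.21% in EAE, against 8.89%, 25.4% and 39.8% in Healthy. The subclass gates need at least 3 marker UMIs at any depth. Median UMI counts of fibroblasts were 4670 and 5150.5 in EAE, against 1258, 3152 and 4304 in Healthy. The part of depth in these shares was not tested.

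Apod differed widely among subclasses. In Gfra1-Osr2 cells it had 122121 CPM in EAE 2 (37 cells), against 101564, 112015 and 89636 in Healthy. EAE 1 held 12 such cells, too few for a value. In Tnc-Cxcl9-Col7a1 cells it had 1928 and 1206 in EAE, in Igfbp3-Slc13a3-Wnt4 cells 3000.5 and 7090 and in Lcn2-Saa3 cells 15953 and 27345. These 3 subclasses had fewer than 20 cells in every Healthy library. Abca8a also ranged widely, with 469 in Gfra1-Osr2 cells of EAE 2, against 353 to 504 in those of Healthy. In EAE 1 and 2 it had 29.2 and 43.1 in Lcn2-Saa3 cells. In the same libraries it had 2.13 and 6.55 in Igfbp3-Slc13a3-Wnt4 cells and 4.73 and 2.80 in Tnc-Cxcl9-Col7a1 cells.

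Abca1 had a different order. In EAE 1 and 2 it had 127 and 205 CPM in Igfbp3-Slc13a3-Wnt4 cells, 94.8 and 92.4 in Lcn2-Saa3 cells and 70.2 and 117 in Tnc-Cxcl9-Col7a1 cells, and 39.7 in Gfra1-Osr2 cells of EAE 2. Apoe was highest in Clec3b-Fmod-Igfbp2 cells among subclasses with enough cells in both states, with 4621 and 6010 in EAE, against 6370.3, 6378 and 9953 in Healthy.

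**Figure D3:**
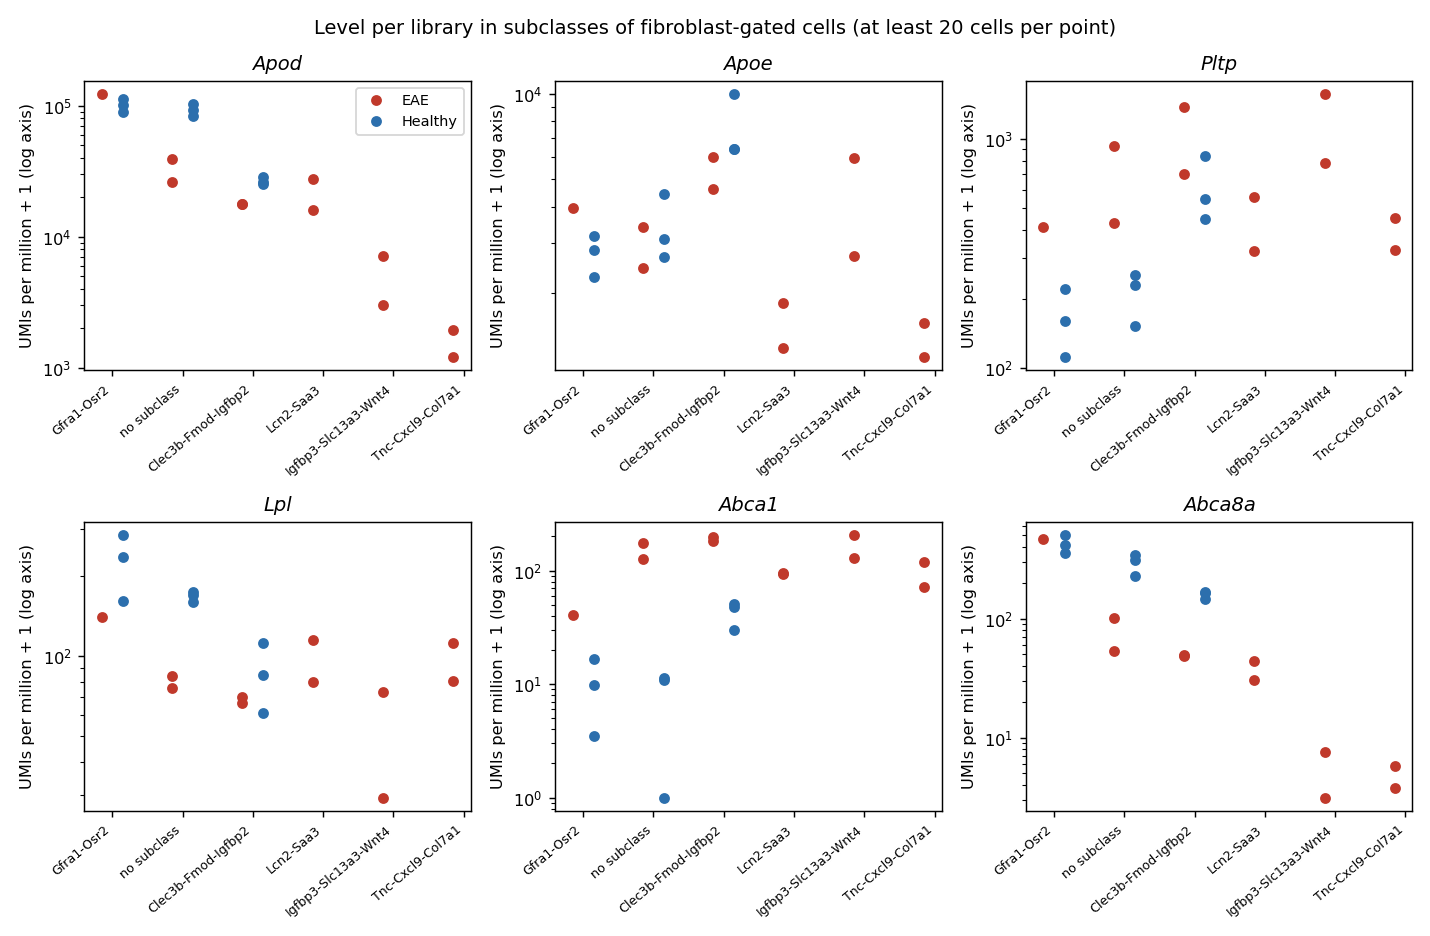
CPM plus 1, on a log axis, of 6 members in subclasses of fibroblast-gated cells, EAE (red) left of Healthy (blue); each point is 1 library with at least 20 cells of the subclass. Apod is lowest in Tnc-Cxcl9-Col7a1 cells (1928 and 1206 in EAE), and in cells of no subclass and Clec3b-Fmod-Igfbp2 cells both EAE points of Abca1 lie above the Healthy points.

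The EAE effect was then fitted within the 2 groups of cells common in both states, an addition made after the data were seen. In Clec3b-Fmod-Igfbp2 cells, 1 of 7 members tested was called higher (2.02% of 6723 genes) and 2 lower (1.96%). Abca1 had 180 and 198 CPM in EAE, against 46.6, 29.0 and 49.3 in Healthy (log2 fold change 2.09, SE 0.30, edgeR adjusted p = 0.00187). Abca8a had 48.1 and 47.7 in EAE, against 163, 145 and 166 in Healthy (-1.77, SE 0.29, adjusted p = 0.00476). Apod had 17704 and 17829 in EAE, against 25944, 28432 and 25149 in Healthy (-0.61, SE 0.14, adjusted p = 0.0330). The Apod call was lost without EAE 1, EAE 2 or Healthy 3 (adjusted p = 0.851, 0.432 and 0.369), and the Abca1 and Abca8a calls without EAE 1 (0.0536 and 0.116).

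In fibroblast-gated cells of no subclass, 2 of 8 members were called higher (4.86% of 6498 genes) and 4 lower (4.74%). Apod had 38770 and 26104 CPM in EAE, against 83679, 101864 and 93290 in Healthy (log2 fold change -1.66, SE 0.19, edgeR adjusted p = 0.0117). Abca1 had 126 and 172 in EAE, against 10.4, 9.89 and 0 in Healthy, where they rest on 5, 5 and 0 UMIs. Pltp (1.34, edgeR adjusted p = 0.00892), Lpl (-1.23, 0.00614), Abca8a (-2.01, 0.000188) and Abca8b (-2.35, 0.0103) were also called. Without EAE 1 or without EAE 2 no gene of any kind was called in these cells, and without Healthy 3 only 1 member was called in each direction. The Apod call was also lost without Healthy 2 (-1.62, edgeR adjusted p = 0.325). It passed in 2 of the 5 fits that left out a library, where those without EAE 2 and without Healthy 3 make the same comparison. The median UMI count of cells of no subclass was 3367 and 3933 in EAE, against 1019, 2601 and 2884 in Healthy.

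The difference of the EAE effect between cells of no subclass and Clec3b-Fmod-Igfbp2 cells was tested with library as a block. Apod fell further in cells of no subclass, by a log2 difference of -1.07 (SE 0.16, edgeR adjusted p = 1.33e-05), and the difference passed without each library in turn, between -1.37 and -0.77. Abca1 and Pltp rose further in cells of no subclass by 1.93 (SE 0.51, adjusted p = 0.0218) and 0.78 (SE 0.21, adjusted p = 0.0282). The Abca1 difference was lost without EAE 2, Healthy 1 or Healthy 3 (0.0755, 0.159 and 0.207), and that of Pltp without EAE 1, EAE 2 or Healthy 3 (0.0695, 0.229 and 0.226). Over 7459 genes 1.78% were called with a higher and 0.764% with a lower effect in cells of no subclass. These cells are what the subclass gates left, 21.1% and 35.6% of fibroblasts in EAE and 60.4%, 47.9% and 22.3% in Healthy. In Healthy their mean Apod level was 92944 CPM, against 101072 in Gfra1-Osr2 cells. Whether they are the same kinds of cells in both states was not tested.

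**Figure D4:**
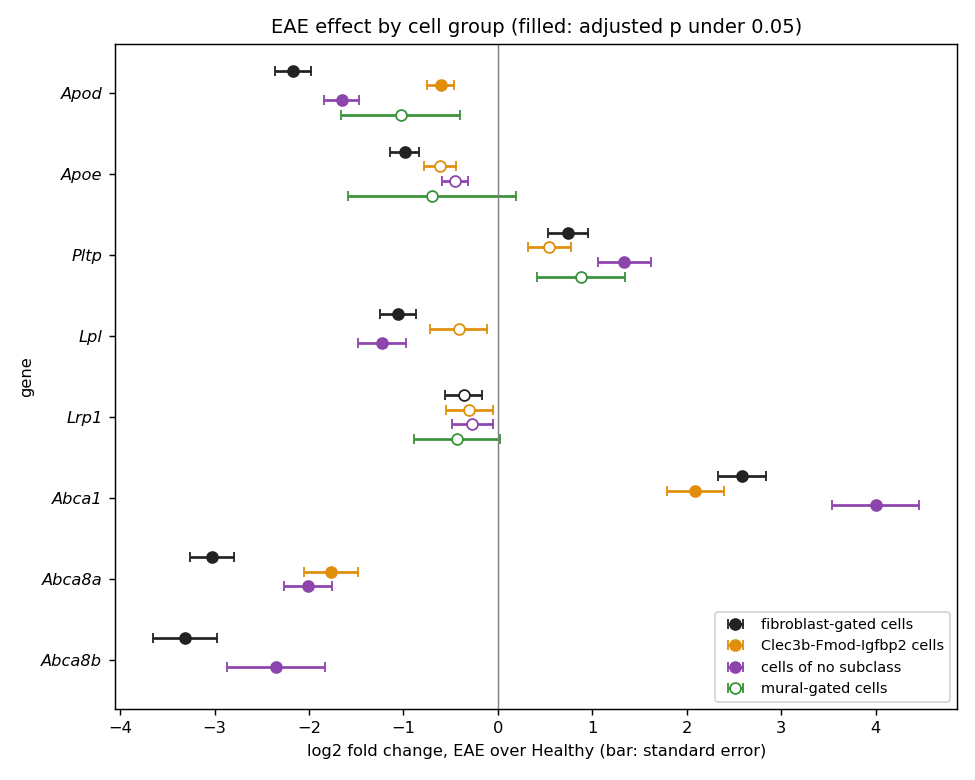
Log2 fold change of EAE over Healthy with its standard error for each member, in fibroblast-gated cells (black), Clec3b-Fmod-Igfbp2 cells (orange), cells of no subclass (purple) and mural-gated cells (green); filled points have an adjusted p under 0.05. Apod lies at -2.17, -0.61, -1.66 and -1.03 in these groups, and no mural point is filled.

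Mural-gated cells, the pericytes and smooth muscle cells around vessels, numbered 70 and 31 in EAE and 24, 34 and 21 in Healthy. Within the same libraries 7 of the 8 members were lower in mural-gated than in fibroblast-gated cells, where 13.2% of 8510 genes were lower and 9.6% higher. Apod had 919 and 628 CPM in mural-gated cells of EAE 1 and 2 and 3875, 799 and 934 in those of Healthy 1, 2 and 3. Lymphocyte-gated cells, which should lack Apod, had 293 and 551 CPM in EAE 1 and 2. How much of the mural levels came from RNA of other cells was not tested. The log2 difference of mural over fibroblast was -5.40 for Apod (SE 0.63, edgeR adjusted p = 0.00481), -3.01 for Abca8a (SE 0.37, 1.05e-08), -2.60 for Abca1 (SE 0.45, 1.06e-05), -1.88 for Lrp1 (SE 0.24, 1.54e-08), -1.62 for Pltp (SE 0.25, 1.52e-06) and -1.14 for Lpl (SE 0.29, 0.00209). Apoe had 2505 and 644 in mural-gated cells of EAE and 709, 3032 and 3236 in those of Healthy, and its difference of -1.29 did not pass (SE 0.61, edgeR adjusted p = 0.251). Abca8b, also called lower (edgeR adjusted p = 0.00404), had 0 UMIs among the 695509 of all mural-gated cells, which allows up to 4.31 CPM (3 UMIs). Its fibroblast-gated levels in EAE, 2.46 and 3.62 CPM, lie under that limit, and those in Healthy above it, so no fold is given.

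Between EAE and Healthy mural-gated cells 0 of the 4 members that passed the filter on low counts were called, and 0 of them had an unadjusted p under 0.05 with edgeR. Over 2378 genes 1.98% were called higher and 0.715% lower. Apoe had a log2 fold change of -2.38 without EAE 1 (edgeR adjusted p = 0.0217), against -0.70 with all libraries (0.866), and 0.39 without EAE 2 (0.999). The EAE effect was not shown to differ between mural-gated and fibroblast-gated cells for any member, where 0.987% of 8510 genes had a higher and 1.01% a lower effect in mural-gated cells. For Apod the difference was 1.37 (SE 0.50, edgeR adjusted p = 0.251), and it passed without Healthy 1 (adjusted p = 5.35e-06), whose mural-gated cells had the highest Apod level.

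Other classes reached 20 cells only in EAE, and their levels are given without a comparison of states. Myeloid-gated cells of EAE 1 (94 cells) had 833 CPM of Apoe and 222 of Lpl, with a 95% counting interval of 175 to 277 for Lpl, against 74.2 for Lpl in its fibroblast-gated cells. Melanocyte-gated cells of EAE 1 (46 cells) had 1249 of Apoe and 15.8 of Apod. Lymphocyte-gated cells had 293 and 551 of Apod and 161 and 312 of Apoe in EAE 1 and 2. Abca8a was at 0 UMIs in myeloid-, lymphocyte- and melanocyte-gated cells. The lymphocyte sums hold only 105805 and 54419 UMIs in EAE 1 and 2, so their zeros do not show absence. Fibroblast-gated cells of these libraries had 34.0 and 41.6 CPM of Abca8a.

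**Figure D5:**
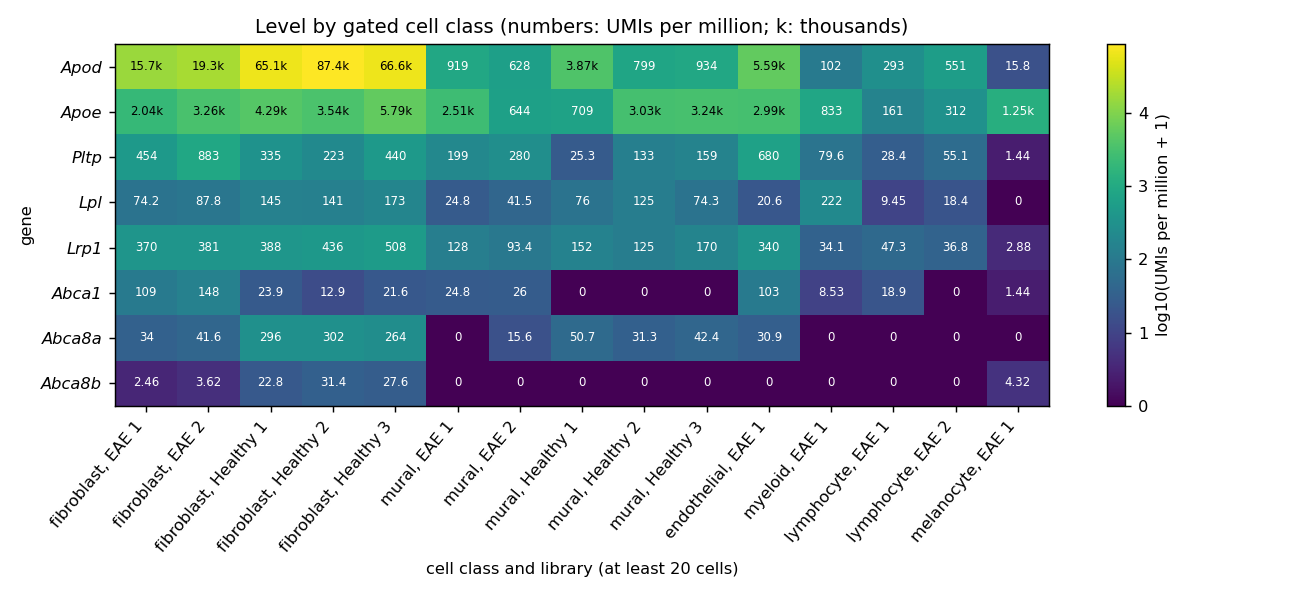
CPM of each member (numbers, with k for kilo; colour on a log10 scale) by gated class and library with at least 20 cells, EAE columns left of Healthy within a class. Apod and Lrp1 are highest in fibroblast-gated columns, Lpl reaches 222 in myeloid-gated cells of EAE 1, and Abca1 is at 0 in the 3 Healthy mural columns. Those 3 sums hold 39485, 127657 and 94262 UMIs. A 0 in each of them does not show a level under the 23.9, 12.9 and 21.6 CPM of Healthy fibroblast-gated cells.

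Across the 15 sums of a library and class, the genes most like each member were ranked by Pearson correlation of log2(CPM + 1) among 6259 genes. These sums share libraries and depth, and the values are descriptions. Dcn and Col3a1 are markers of the fibroblast gate and Cdh5 of the endothelial gate, so the gates partly set their likeness. Htra3 (0.972), Gpc3 (0.965) and Dcn (0.963) were most like Apod, and Mgp (0.957) and Col3a1 (0.936) were among the 3 most like Pltp. Svep1 (0.948), Cdh5 (0.920) and Enpp1 (0.893) were most like Abca1, and Vwa1 (0.912), Gsn (0.911) and Smoc2 (0.906) most like Abca8a. Tm2d2 (0.934), Mcfd2 (0.922) and Nupr1 (0.903) were most like Apoe, and Itm2b (0.836), Sarnp (0.821) and Acaa1a (0.811) most like Lpl. Rcn3 (0.954) and Fgfr1 (0.95) were among the 3 most like Lrp1. Abca8b lay under the level limit of 20 CPM.

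Other genes of the same pathways were read from the fibroblast-gated fit, where the shares of all genes called were those given above. Of 7 other apolipoproteins and small carriers tested, 1 was higher and 1 lower. The lower one was Clu, the secreted chaperone clusterin (log2 fold change -1.30, edgeR adjusted p = 0.0100). Of 10 other ABC lipid transporters tested, 0 were higher and 2 lower, the Abca6 and Abca9 neighbours of Abca8a. Of 14 lipoprotein receptors and partners tested, 0 were higher and 8 lower, and their median was -0.75 on the log2 scale. These included Lrpap1, the chaperone of LRP1 (-1.07, edgeR adjusted p = 0.00683), and Sort1, the sorting receptor sortilin (-1.04, 0.0173).

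Of 11 lipases and regulators of lipoprotein lipase tested, 2 were higher and 3 lower. Lipa, the lysosomal acid lipase, had 48.0 and 43.9 CPM in EAE, against 15.6, 16.9 and 16.8 in Healthy (log2 fold change 1.38, edgeR adjusted p = 0.00172). Angptl4, an inhibitor of lipoprotein lipase, had 68.5 and 84.6 in EAE, against 30.1, 48.4 and 31.7 in Healthy (0.95, 0.0260). Lmf1, which is needed for lipase folding, was lower (-0.94, 0.0163). Of 12 liver X and peroxisome proliferator receptors with targets tested, 1 was higher and 4 lower, and their median was -0.20 on the log2 scale. Elovl5, a fatty acid elongase (-1.53, 0.000737), Nr1h3, which encodes a liver X receptor (-1.24, 0.00345), and Scd1, a fatty acid desaturase (-1.11, 0.00373), were lower.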

How the data were processed

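The authors deposited 5 tables of raw UMI counts, 1 per library, with no normalisation. Per the labels' protocols, spinal cords were dissociated, GFP+ cells sorted, and 10x Genomics v2 libraries made. The submitters' processing notes name Cell Ranger 2.1.1, Seurat 3 and build mm10. How cells were called is not given in the sources used. Members and gene lists were chosen with earlier results of these data known.

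Barcodes needed 200 genes or more and 10% or less mitochondrial UMIs, and barcodes shared within the first batch were kept once. Batches follow whether a label carries a lane. Doublets were neither called nor removed here. Other classes needed at least 3 UMIs from at least 2 markers and 0.1% of a barcode's UMIs (red cells 10%). Fibroblasts needed at least 3 UMIs from at least 2 markers and no other gate. Subclasses needed at least 3 marker UMIs. Sums per library and class of at least 20 cells were tested with edgeR 4.0.16 (TMM, low-count filter, robust fit, Benjamini-Hochberg) in R 4.3.3, and DESeq2 1.42.0 was an alternative. CPM values are over library sums without TMM. The 95% counting intervals are exact Poisson and, like the floor of 3 UMIs, cover counting error only. The tests were tested on simulated data. Library totals ranged from 1588693 to 10775024 UMIs. In fibroblasts Abca8b rested on 21 to 41 UMIs per library, and Abca1 on 16 to 32 in Healthy.

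Named genes were the 8 members, up to 3 risers and 3 fallers of each of 5 other lists with a mean of at least 20 CPM, and the 3 genes most like each member. Some genes that this rule names are not reported here. Alternatives were another tool, normalisation, low-count and barcode filters, gates, depth, the batch term, and each library left out. Promoters came from RefSeq, which matched 7 members, and gene positions from an annotation of mm10.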

Additional observations from a re-analysis of the deposited data

Results flagged for a closer look

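The EAE effect differed between fibroblast-gated cells of no subclass and Clec3b-Fmod-Igfbp2 cells for 3 members in an edgeR test of the difference itself. The log2 difference was -1.07 for Apod, 1.93 for Abca1 and 0.78 for Pltp. Among the 5 fits that left out a library, Apod passed in 5, Abca1 in 2 and Pltp in 2. Depth per cell was lower in Healthy cells of no subclass (median 1019 UMIs in Healthy 1) than in those of EAE (3367 and 3933). These cells were 21.1% and 35.6% of fibroblasts in EAE, against 60.4%, 47.9% and 22.3% in Healthy. The parts of depth and of the cell mix in the differences were not tested.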

How the results depend on the processing

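In fibroblast-gated cells the calls of Apod, Abca1, Abca8a and, where it was tested, Abca8b passed under every alternative run. Their sizes changed. For Apod, Abca8a and Abca1 the log2 fold changes of -2.17, -3.03 and 2.58 became -1.62, -2.48 and 2.70 after thinning. Without the 3 subclasses of EAE they were -1.42, -2.03 and 2.94, and Abca8b went from -3.31 to -2.67. The log2 fold change turned its sign for no member. Among the alternatives with no library left out, Apoe was lost without the batch term (-0.88), in Clec3b-Fmod-Igfbp2 cells (-0.62), in cells of no subclass (-0.45) and without the 3 subclasses of EAE (-0.48). Pltp was lost without the batch term (0.91) and in Clec3b-Fmod-Igfbp2 cells (0.54), and Lpl in Clec3b-Fmod-Igfbp2 cells (-0.42). The count of fibroblast genes higher in EAE was 991, and it was 599 with all barcodes as deposited, 614 with DESeq2, 1656 without a filter on low counts, 411 after thinning, 136 in Clec3b-Fmod-Igfbp2 cells, 316 in cells of no subclass and 539 without the 3 subclasses of EAE. The count of genes lower was 1044, and 402, 132, 308 and 519 after thinning, in Clec3b-Fmod-Igfbp2 cells, in cells of no subclass and without the 3 subclasses. Members higher were 1 without the batch term and in Clec3b-Fmod-Igfbp2 cells, where 2 were lower. Over all barcodes 607 genes were higher without the batch term and 527 as deposited, with 0 members higher as deposited. Mural-gated genes without the batch term were 22 higher and 6 lower. Leaving out 1 library gave 391 to 1542 higher and 387 to 1296 lower genes in fibroblasts, with 1 to 2 members higher and 3 to 5 lower, and 378 to 1444 and 379 to 1178 genes over all barcodes, with 1 to 2 members higher and 3 to 5 lower. It gave 0 to 32 higher and 0 to 30 lower genes in mural-gated cells, with 0 to 1 member lower, and 34 to 72 and 33 to 105 genes for the mural difference of the effect, with 0 to 1 member higher. It gave 42 to 266 and 33 to 270 genes in Clec3b-Fmod-Igfbp2 cells, with 0 to 1 member higher and 0 to 3 lower, 0 to 484 and 0 to 401 in cells of no subclass, with 0 to 2 and 0 to 4 members, and 32 to 60 genes with a lower effect for the subclass difference, with 0 to 2 members higher. The fits without EAE 1, EAE 2 or Healthy 3 leave a state or batch with 1 library, which is assumed to vary like the others. Those without Healthy 1 or Healthy 2 do not. In the fits of EAE against Healthy the batch term takes up a library that is alone in its batch. The fits without EAE 2 and without Healthy 3 therefore make the same comparison, EAE 1 against Healthy 1 and 2, and are not separate checks. Unthinned, the EAE minus Healthy difference in the share of fibroblasts with a UMI was -1.73 percentage points for Apod, 2.60 for Apoe, 37.0 for Abca1, -30.4 for Abca8a, -6.13 for Abca8b, 33.5 for Pltp and 15.6 for Lrp1. Thinned, it was -18.1 for Apod, -11.9 for Apoe, 10.0 for Abca1 and -19.1 for Abca8a. It was -2.03 for Abca8b, 17.2 for Pltp and -1.02 for Lrp1, so the sign turned for Apoe and Lrp1. Causes of these shifts were not tested. No paired analysis was possible because EAE and Healthy share only replicate number 2 and EAE 1 carries no number in its title. Depth limits Abca8b in all libraries (21 and 25 fibroblast UMIs in EAE, against 22, 39 and 41 in Healthy) and Abca1 in Healthy (934 and 1024 in EAE, against 23, 16 and 32 in Healthy).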
